A study of Mus musculus with 9 samples.

Results

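The genes described here are the collagen chains and the enzymes and chaperone that turn them into fibrils, measured by RNA sequencing in mouse MC3T3-E1 cells. They were chosen by name: every gene whose symbol has the form Col, number, a, number, without Col2a1, and in addition P4ha1, P4ha2, P4ha3, P4hb, Plod1, Plod2, Plod3, Serpinh1, Bmp1, Pcolce, Loxl2, Loxl3 and Loxl4. This gave 56 of the 55416 genes in the count table, 43 of them collagen chains and 13 processing genes. With a minimum of about 10 counts in the libraries of a condition (edgeR's filterByExpr), 44 of the 56 were tested, namely 31 chains and all 13 processing genes, out of 13679 genes tested in all.

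Collagens are built from 3 chains wound into a triple helix. In the endoplasmic reticulum, prolyl 4-hydroxylase and the lysyl hydroxylases modify the chains and the chaperone encoded by Serpinh1 (HSP47) holds the folded helix. After secretion, Bmp1 removes the C-propeptide with the help of its enhancer Pcolce, and enzymes of the lysyl oxidase family cross-link the fibrils. Type I collagen, made of Col1a1 and Col1a2 chains, is the main protein of bone, and osteoblasts lay it down as the scaffold on which mineral forms.

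MC3T3-E1 is a pre-osteoblastic line from mouse calvaria with a wild-type genotype. All wells, Control wells included, were first differentiated in osteogenic medium that contained β-glycerophosphate (BGP), ascorbic acid and dexamethasone, and per the study's methods BGP was left out of the medium before the treatment. On day 27 cells received 4 mM BGP as organic phosphate, 4 mM Na2HPO4/NaH2PO4 (NaHPO4) as inorganic phosphate, or neither (Control), for 16 h. Each condition had 3 libraries. Control was not free of phosphate, because the base medium held sodium phosphate in every condition, which the study names as a possible confounder. From alkaline phosphatase activity, the study also infers that these cultures turn BGP into inorganic phosphate. Organic and inorganic therefore name the form that was added, and the part of these points in the results was not tested. The question was how the expression of cells differs between the forms of phosphate. All libraries come from a single cell line, and the labels do not state whether replicates are separate cultures, so the p-values measure only the spread between these libraries, which may be technical.

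The libraries held 21390839 to 28234404 counts, and the NaHPO4 libraries were deeper on the whole (25203779 to 28234404) than the Control (21390839 to 25646046) and BGP libraries (22331071 to 23546609). Mitochondrial genes took 2.51% to 2.70% of counts in every library. The 6 osteoblast markers summed to between 13540 and 14390 CPM, the counts per 1e6 counts of a library after TMM scaling, with Ibsp alone at 12430 CPM in Control, and all 6 passed the count filter. Of the chondrocyte markers, Acan and Matn1 were at or near 0, Sox9 lay at 40.8 CPM and Comp at 16.0 CPM in Control. All 4 endothelial markers summed to 0.187 CPM at most and all 4 macrophage markers to 2.48 CPM at most. The 5 adipocyte markers summed to 16.1 CPM at most. Most of that was Fabp4 (13.8 CPM in Control), the only adipocyte marker past the count filter. The osteocyte marker Dmp1 rose from 76.0 CPM in Control to 552 CPM with BGP and 349 CPM with NaHPO4. Of the other osteocyte markers, none passed the test as higher with both phosphates. Phex lay at 34.7 CPM in Control, 41.6 with BGP and 36.7 with NaHPO4, and Mepe at 3.45, 3.44 and 3.07. Phex passed as higher with BGP (log2 fold change 0.26, false discovery rate 0.033) but not with NaHPO4 (0.08, false discovery rate 0.58). Sost was lower with NaHPO4, at 1.39 CPM in Control, 1.21 with BGP and 0.427 with NaHPO4.

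RefSeq promoter windows of a few genes that carry the results are shown here. They are Col1a2 as a type I chain, Col11a2 and Col15a1 as the chains that fell furthest with NaHPO4, and P4ha1 as an enzyme that rose. Each window runs from 250 bases before to 50 bases after the RefSeq start, 5′ to 3′ on the strand of the gene, and was taken from RefSeq (GRCm38.p6). Each matched its chromosome in GRCm39 exactly and at 1 place, whose coordinates are given. Capitals mark 3 short motifs wherever their letters stand on either strand. The first is CCAAT, the site of the factor NF-Y, which reads ATTGG on the other strand. The second is TATAAA, the TATA box, which reads TTTATA on the other strand. The last is GGGCGG, the GC box of Sp factors, which reads CCGCCC on the other strand.
Col1a2 (chr6:4505368-4505667, plus strand): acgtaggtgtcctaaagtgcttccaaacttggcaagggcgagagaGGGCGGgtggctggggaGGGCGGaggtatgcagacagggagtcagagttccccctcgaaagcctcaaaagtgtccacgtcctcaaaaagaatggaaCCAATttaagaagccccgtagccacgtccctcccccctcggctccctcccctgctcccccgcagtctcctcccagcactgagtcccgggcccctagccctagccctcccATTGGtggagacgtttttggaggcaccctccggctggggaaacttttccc
Col11a2 (chr17:34257862-34258161, plus strand): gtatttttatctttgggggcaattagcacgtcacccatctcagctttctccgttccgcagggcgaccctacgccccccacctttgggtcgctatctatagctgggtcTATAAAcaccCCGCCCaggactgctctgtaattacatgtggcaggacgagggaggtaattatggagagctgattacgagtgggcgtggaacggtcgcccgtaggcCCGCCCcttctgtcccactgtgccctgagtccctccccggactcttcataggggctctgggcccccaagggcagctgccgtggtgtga
Col15a1 (chr4:47207762-47208061, plus strand): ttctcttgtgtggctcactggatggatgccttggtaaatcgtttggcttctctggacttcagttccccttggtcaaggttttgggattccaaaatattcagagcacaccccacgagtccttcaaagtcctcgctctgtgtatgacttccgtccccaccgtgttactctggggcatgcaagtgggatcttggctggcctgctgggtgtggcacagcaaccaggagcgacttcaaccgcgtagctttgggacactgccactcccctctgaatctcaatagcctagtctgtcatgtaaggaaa
P4ha1 (chr10:59158868-59159167, plus strand): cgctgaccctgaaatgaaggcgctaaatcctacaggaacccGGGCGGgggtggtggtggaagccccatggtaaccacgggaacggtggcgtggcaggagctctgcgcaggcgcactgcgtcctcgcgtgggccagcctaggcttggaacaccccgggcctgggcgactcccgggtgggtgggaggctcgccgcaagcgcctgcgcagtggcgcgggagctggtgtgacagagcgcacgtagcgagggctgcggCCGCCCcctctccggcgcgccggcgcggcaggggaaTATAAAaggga
The Col1a2 window held 2 CCAAT and 2 GGGCGG matches, the last CCAAT match beginning at base 251 of the window, at the RefSeq start. The Col1a2 and Col15a1 windows lie inside their GRCm39 genes, which begin upstream at chr6:4504814 and chr4:47207582. Those upstream starts are not covered by the windows. Col11a2 held a TATAAA match at base 108 and 2 GGGCGG matches, whereas the Col15a1 window held none of the motifs. P4ha1 had a TATAAA match at base 290, beyond the annotated start, and 2 GGGCGG matches. Such a window was at hand for 44 of the 56 genes; GGGCGG occurred in 30 of these (68.2%), against 35.7% of all 32851 windows. CCAAT occurred in 15 of the 44 (34.1%, against 37.4% of all windows) and TATAAA in 7 (15.9%, against 13.6%). These shares are in unlike units, because a gene counted once if any of its windows matched, while all windows were counted singly. The windows of all genes were also not limited to genes tested here. These matches describe letters in the windows and do not show that a factor was bound. Genes without a window were Bmp1, Col1a1, Col4a3, Col5a2, Col9a3, Col12a1, Col14a1, Col22a1, Col26a1, Loxl2, Loxl3 and Plod2.

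The collagen chains made up a large part of the transcriptome of these cells. In the 3 Control libraries they took 12.1%, 12.6% and 12.8% of all counts, a mean of 12.5% ± 0.351 (SD, n = 3), and 3 chains stood among the 10 genes with the most counts in every library. The pair Col1a1 and Col1a2 accounted for 9.91% ± 0.329 in Control, all other chains together for 2.59% ± 0.0901, and the 13 processing genes for 0.544% ± 0.00298. Divided by the length of the canonical transcript, Col1a2 had the highest level in Control at 10520 ± 312 CPM per kb (SD, n = 3), followed by Col1a1 at 7299 ± 358 CPM per kb and Col3a1 at 1489 ± 89.6 CPM per kb. Next in order stood Pcolce (737 CPM per kb), Serpinh1 (624), Col6a1 (536), Col5a2 (438), P4hb (416), Col6a3 (297) and Col5a1 (270). With the joined length of all exons the same 10 genes led, but Col1a1 (6591 CPM per kb) then stood above Col1a2 (4457 CPM per kb), so the order of the type I chains depends on the length used.

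**Figure D1:**
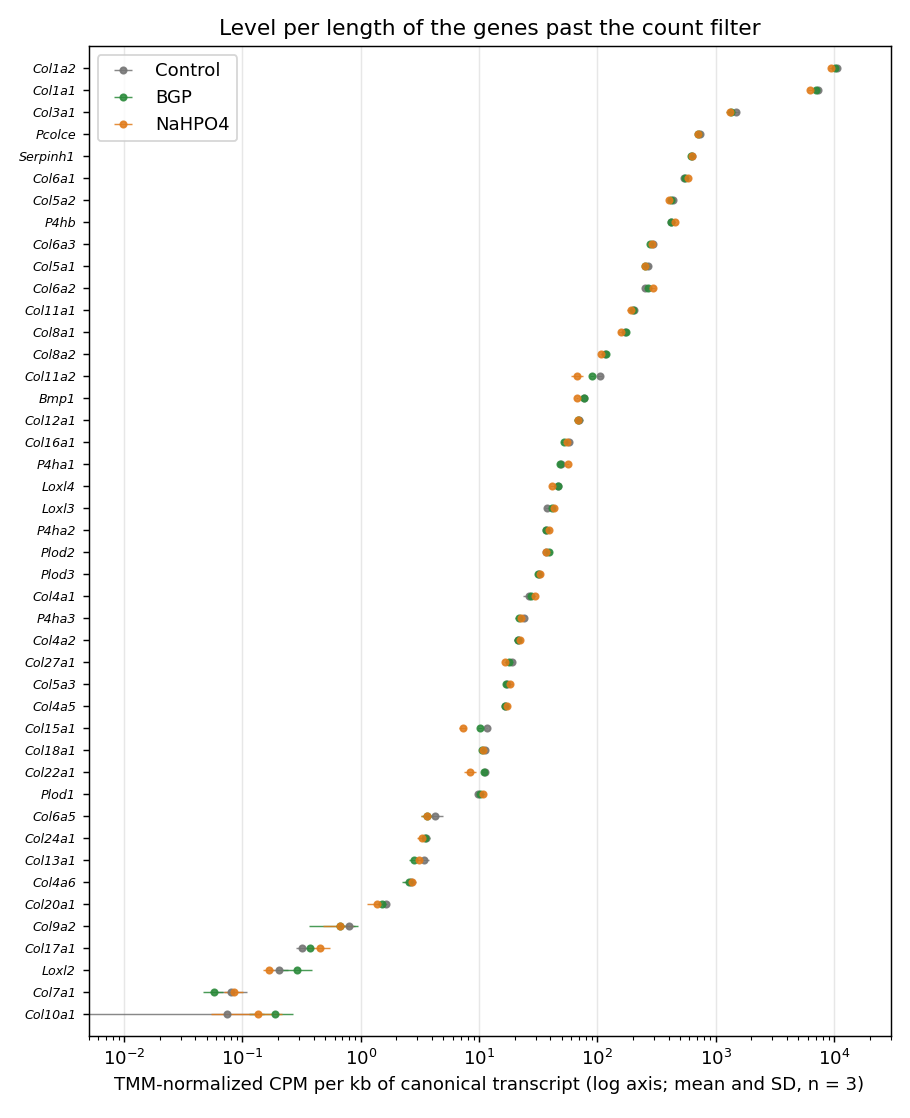
Level of each of the 44 tested genes as TMM-normalized CPM per kb of canonical transcript on a log axis, with the mean and SD of 3 libraries per condition (gray Control, green BGP, orange NaHPO4). Levels in Control span from 0.0739 CPM per kb for Col10a1 to 10520 CPM per kb for Col1a2, and Col7a1 with BGP lies lower, at 0.0576 CPM per kb. The SD bar of Col10a1 in Control runs off the left edge because it exceeds the mean.

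On GRCm39, the build of the counts, the type I genes lie apart, Col1a1 (ENSMUSG00000001506) at chr11:94827050-94843868, plus strand, 51 exons in the canonical transcript and Col1a2 (ENSMUSG00000029661) at chr6:4504814-4541555, plus strand, 52 exons. Col11a2 (ENSMUSG00000024330) lies at chr17:34258108-34285664, plus strand, 64 exons. Col15a1 (ENSMUSG00000028339) lies at chr4:47207582-47313179, plus strand, 40 exons. Some members are neighbours. Col6a1 (chr10:76543440-76562283, minus strand, 35 exons) and Col6a2 (chr10:76429660-76459549, minus strand, 28 exons) stand 83890 bases apart, and Col3a1 (chr1:45350698-45395840, plus strand, 51 exons) and Col5a2 (chr1:45412554-45542442, minus strand, 54 exons) stand 16713 bases apart.

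At the low end, Col7a1, Col10a1, Col9a2, Col17a1 and Loxl2 passed the filter but did not exceed 3.12 CPM in any library, and none of them passed the test in any comparison. Col10a1, a marker of hypertrophic cartilage, had 1 to 19 counts per library and a log2 fold change of 1.27 with BGP whose 95% interval ran from 0.09 to 2.46. Loxl2 shared 43.3% of its 50-base windows with other genes such as Gm21451, so its count is uncertain. The 12 chains under the filter were Col9a3, Col9a1, Col14a1, Col19a1, Col6a4, Col6a6, Col4a4, Col4a3, Col23a1, Col28a1, Col25a1 and Col26a1, with 0 to 12 counts per library. Col19a1 and Col25a1 had no count in any library, which allows up to 3 counts, or between 0.106 and 0.140 CPM, per library, for counting error only.

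NaHPO4 lowered the type I chains, Col3a1, Col5a2, Col11a2, Col27a1, Col22a1, Col8a2, Col15a1, Bmp1 and Loxl4, and raised Col6a1, Col6a2, Col4a1, P4hb, P4ha1 and Loxl3. In all, 17 of 44 genes (38.6%) passed the test at a false discovery rate (FDR) below 0.05 against 7.38% of all genes tested. The 6 genes that rose compare with 3.43% of all genes called higher, and the 11 that fell with 3.95% called lower. BGP changed 3 genes (6.82%, against 2.53% of all genes): Loxl3 rose (1.86% of all genes were called higher), and Col11a2 and Col15a1 fell (0.665% were called lower). Between the phosphates directly, 12 genes differed (27.3%, against 5.38% of all genes), of which 9 were higher (3.33% of all genes) and 3 lower (2.05%) with BGP than with NaHPO4. All p-values were adjusted over 13679 genes in edgeR's quasi-likelihood test, and the comparisons share libraries, so they are given side by side only. Many of the collagen genes are highly counted, and such genes can pass with smaller changes than genes of few counts. The shares of all genes were not matched for count level, and its part in these differences was not tested.

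Changes were small. With the added demand of an absolute log2 fold change above 0.5, Col15a1 and Col11a2 remained with NaHPO4 (2 genes, against 0.716% of all genes), and none with BGP (0.556% of all genes) or between the phosphates (0.585%). At an unadjusted p below 0.05 there were 14 of 44 genes with BGP (13.4% of all genes), 24 with NaHPO4 (19.9%) and 18 between the phosphates (16.9%). The median log2 fold change over the 44 genes was -0.03 with BGP and -0.07 with NaHPO4, where the medians over all genes were -0.004 and 0.0001. The libraries of the groups did not overlap for 7 of 44 genes with BGP (18.5% of all genes), 19 with NaHPO4 (23.2%) and 18 between the phosphates (21.2%).

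**Figure D2:**
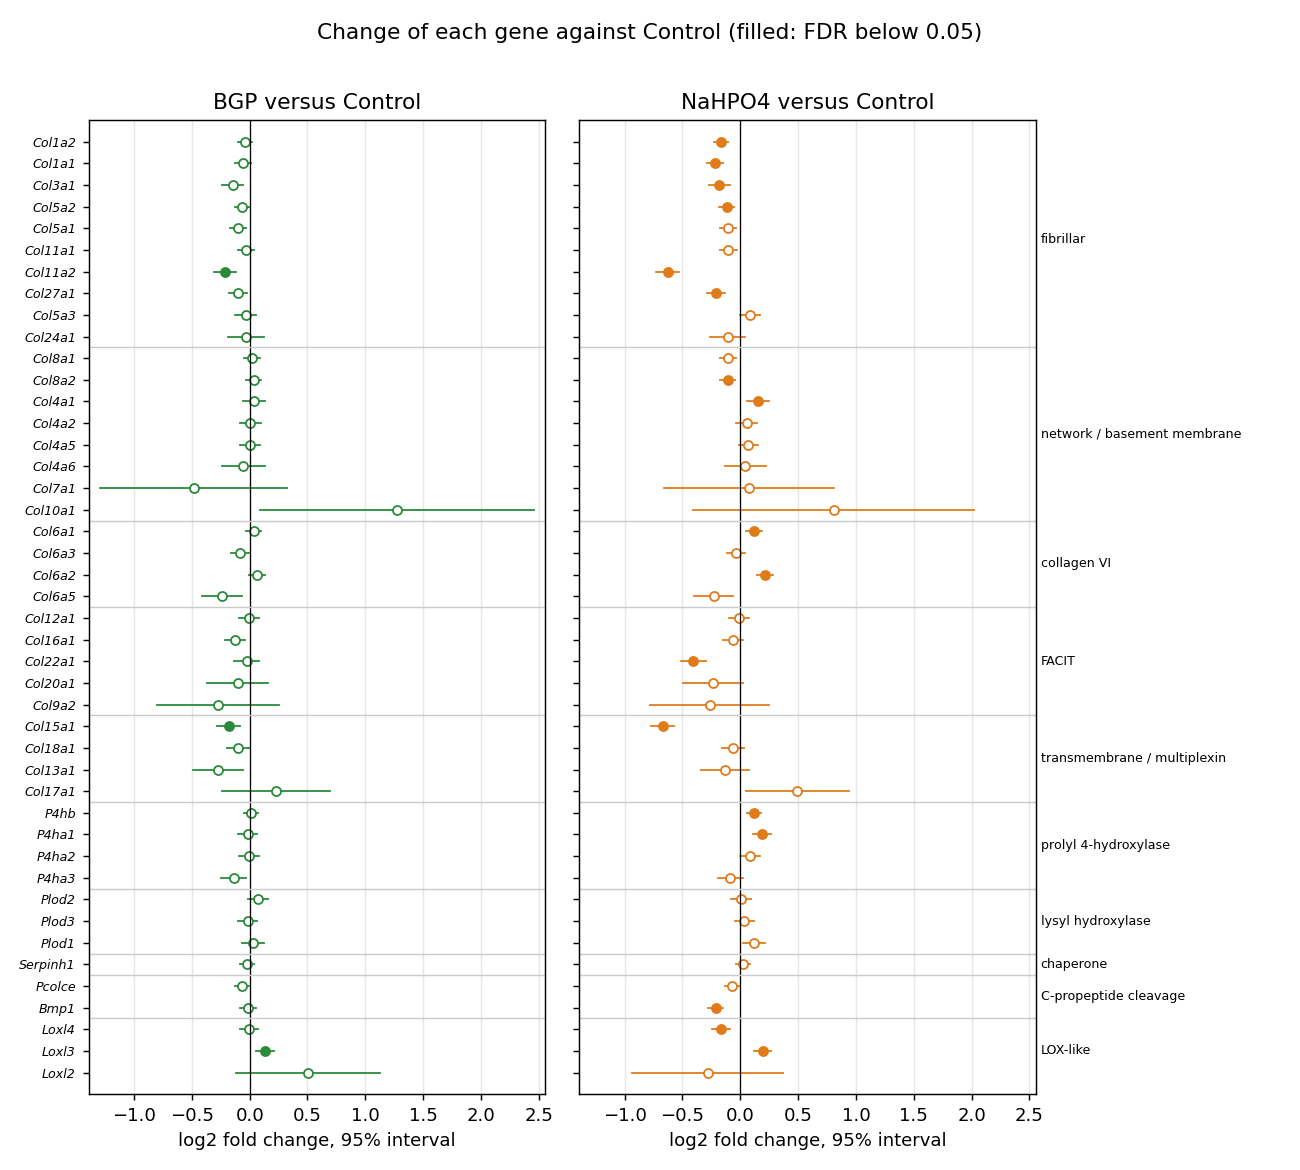
Log2 fold change against Control of the 44 tested genes by role, with its 95% interval from the edgeR fit of 9 libraries; filled points have an FDR below 0.05. With NaHPO4, Col15a1 (-0.67) and Col11a2 (-0.63) lie furthest to the left among filled points, 6 of 10 fibrillar chains are filled and all of those lie below 0, and with BGP only Col11a2, Col15a1 and Loxl3 are filled.

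Among the fibrillar chains, 6 of 10 fell with NaHPO4 and none rose, where 3.95% of all genes were called lower and 3.43% higher. Col1a1 lay at 41050, 43550 and 45260 CPM in the Control libraries, at 41870, 39560 and 43090 with BGP, and at 38510, 37730 and 35520 with NaHPO4. All NaHPO4 libraries were below all Control and BGP libraries, while those of Control and BGP overlapped. With NaHPO4, Col1a1 had a log2 fold change of -0.22 (SE 0.034, FDR = 2.5e-05), or -13.9%, and with BGP -0.06 (95% interval -0.13 to 0.01, FDR = 0.46). The NaHPO4 call for Col1a1 held in all 19 alternatives.

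Its partner Col1a2 had 54750, 56290 and 58090 CPM in Control, 55250, 53450 and 55970 with BGP, and 51620, 50960 and 48020 with NaHPO4, again with the NaHPO4 libraries below all others. It changed by -0.17 on the log2 scale with NaHPO4 (SE 0.030, FDR = 0.00018) and -0.04 with BGP (95% interval -0.10 to 0.02, FDR = 0.63). In limma on the authors' TMM table the NaHPO4 change of Col1a2 did not pass (FDR = 0.060). An antisense transcript, Gm66266, overlaps 1308 exon bases of Col1a2; the library kit marks strand, but whether counting used it is not given in the sources used here. Where the type I chains fell, the osteoblast genes Alpl (log2 fold change -0.21, FDR = 0.0013), Bglap (-0.15, FDR = 0.015) and Bglap2 (-0.14, FDR = 0.0059) also fell with NaHPO4. Ibsp (-0.03, FDR = 0.66), Runx2 (-0.09, FDR = 0.089) and Sp7 (-0.09, FDR = 0.061) did not pass the test. The 6 osteoblast markers summed to 13780 to 14390 CPM in Control, 14030 to 14300 with BGP and 13540 to 13990 with NaHPO4, ranges that overlap. Most of this sum is Ibsp (12430 CPM in Control and 12190 with NaHPO4), so it says little about the other markers. In bulk libraries, fewer cells of a type and less RNA per cell cannot be told apart, and the part of cell composition in these results was not tested.

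As a share of all counts, the type I pair was 9.91% ± 0.329 in Control, 9.57% ± 0.268 with BGP and 8.84% ± 0.316 with NaHPO4 (SD, n = 3). All chains together took 12.5% ± 0.351, 12.0% ± 0.341 and 11.3% ± 0.361 of the counts. The difference between NaHPO4 and Control was -1.18 percentage points, with libraries that did not overlap (exact permutation test, two-sided, p = 0.1, which is the smallest p that 3 against 3 libraries can give). BGP differed from Control by -0.476 points (exact permutation p = 0.2). The other chains summed up were at 2.59% in Control, 2.46% with BGP and 2.48% with NaHPO4, so the type I pair made up -1.07 of the -1.18 points. The ratio of Col1a1 to Col1a2 per transcript length was 0.694 ± 0.0142 in Control, 0.683 ± 0.0135 with BGP and 0.671 ± 0.00320 with NaHPO4, and the NaHPO4 libraries lay below those of Control without overlap (exact permutation p = 0.1).

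Col3a1, the type III chain that joins type I fibrils, had 8101, 8849 and 7905 CPM in Control and 7293, 7539 and 7113 with NaHPO4, which did not overlap. Its log2 fold change was -0.18 (SE 0.043, FDR = 0.0055), but without Control replicate 2 the FDR was 0.073, and DESeq2 gave 0.214. With BGP, Col3a1 lay at 6896, 7228 and 8310 CPM, a spread that overlapped Control, with a log2 fold change of -0.15 (FDR = 0.057). Without BGP replicate 3, the highest of these, the change was -0.23 (FDR = 0.00013), and without Control replicate 3 it was -0.18 (FDR = 0.021). With all libraries, the change also passed when scaled by total counts (FDR = 0.042) or with no count filter (FDR = 9.9e-08). Leaving out NaHPO4 replicate 1 or 3 gave an FDR of 0.049 or 0.047. These libraries are outside this comparison but enter its filter, scaling and shared spread.

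The type V chains regulate fibril diameter. Col5a2 lay at 3209, 3446 and 3259 CPM in Control, 3150, 3125 and 3208 with BGP, and 3158, 3030 and 2955 with NaHPO4, where it fell (log2 fold change -0.12, SE 0.032, FDR = 0.015). That call was lost without Control replicate 2 (FDR = 0.127), NaHPO4 replicate 2 (0.071) or NaHPO4 replicate 3 (0.094), and with scaling by total counts or in limma (0.057 in each). Col5a1 had a log2 fold change of -0.10 with each phosphate (FDR = 0.12 with BGP and 0.064 with NaHPO4). Without Control replicate 1 it passed in both (0.022 and 0.010), and without BGP replicate 3 it passed with BGP (0.045). With no count filter it also passed in both (0.013 and 0.0061).

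The type XI chains, which sit at the core of thin fibrils, moved apart. Col11a2 read 700, 636 and 657 CPM in the Control libraries, 591, 553 and 575 with BGP, and 485, 424 and 381 with NaHPO4. The 3 conditions did not overlap. For Col11a2 the log2 fold change was -0.63 with NaHPO4 (SE 0.048, FDR = 5.1e-12), a fall of 35.3%, and -0.21 with BGP (SE 0.048, FDR = 0.007). Each of the 19 alternatives kept the NaHPO4 call, but the BGP call was lost without Control replicate 1 (FDR = 0.087), without BGP replicate 2 (0.098) and in DESeq2 (0.316).

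Col11a1, in contrast, lay at 1521, 1614 and 1620 CPM in Control, 1513, 1567 and 1570 with BGP and 1560, 1491 and 1379 with NaHPO4, with overlap throughout. Its log2 fold change with NaHPO4 was -0.10 (95% interval -0.17 to -0.03, FDR = 0.076). Col11a1 passed without Control replicate 1 (FDR = 0.041) or NaHPO4 replicate 1 (0.0089), or with no count filter (0.010). The ratio of Col11a1 to Col11a2 per transcript length, which does not depend on library scaling, was 1.97 ± 0.158 in Control, 2.23 ± 0.112 with BGP and 2.84 ± 0.170 with NaHPO4 (SD, n = 3). No libraries overlapped between the conditions in this ratio (exact permutation p = 0.1 for each pair, the smallest possible). The cartilage gene Comp fell with both phosphates (log2 fold change -0.44, FDR = 0.013 with BGP and -0.49, FDR = 0.0014 with NaHPO4), from 16.0 CPM in Control, and Sox9 did not pass the test. The 5 chondrocyte markers summed to 55.6 to 62.6 CPM in Control, 53.3 to 57.1 with BGP and 46.3 to 55.2 with NaHPO4, with Acan and Matn1 at or near 0; their part in the Col11a2 result was not tested.

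Of the remaining fibrillar chains, Col27a1 fell with NaHPO4, from 144, 151 and 140 CPM to 128, 125 and 123 CPM (log2 fold change -0.21, SE 0.040, FDR = 0.00041). Col5a3 (log2 fold change 0.09) and Col24a1 (-0.11) did not pass with NaHPO4, and none of these 3 passed with BGP.

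**Figure D3:**
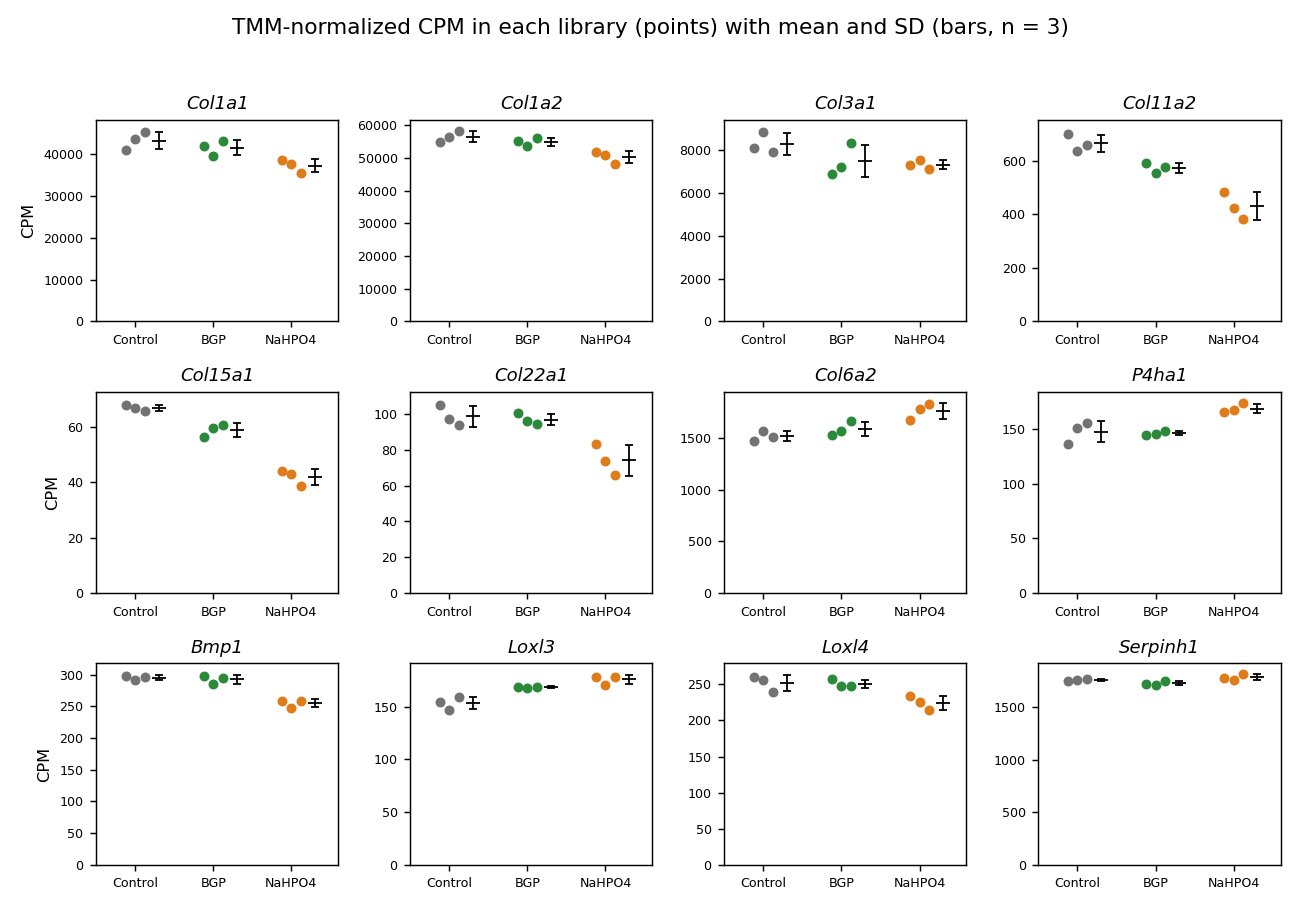
TMM-normalized CPM of 12 genes in each of the 9 libraries (points), with the mean and SD of 3 libraries per condition (bars) and axes from 0. The NaHPO4 points of Col1a1, Col1a2, Col11a2, Col15a1, Col22a1, Bmp1 and Loxl4 lie below all Control points, those of Col6a2, P4ha1 and Loxl3 lie above them, and the Serpinh1 points lie between 1711 and 1816 CPM in all conditions.

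Collagen XV, a chain of the multiplexin type that links fibrils to basement membranes, showed the largest fall of any of the 44 genes with NaHPO4 among those that passed. Col15a1 had 67.7, 66.7 and 65.8 CPM in Control, 56.2, 59.7 and 60.7 with BGP, and 44.1, 42.8 and 38.7 with NaHPO4, with no overlap between conditions. The log2 fold change was -0.67 with NaHPO4 (SE 0.050, FDR = 2.2e-12), or -37.2%, and it passed in all 19 alternatives. With BGP it was -0.18 (SE 0.049, FDR = 0.035); this call was lost when each Control replicate in turn was left out (FDR 0.067 to 0.142), without BGP replicate 1 (0.235) or 2 (0.094), and in DESeq2 (0.060). Col18a1, the other multiplexin and the source of endostatin, did not pass (-0.10 with BGP and -0.06 with NaHPO4), nor did the transmembrane chains Col13a1 and Col17a1.

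Of the 5 tested FACIT chains, which decorate fibril surfaces, only Col22a1 passed a test. Over all genes, 3.95% were called lower with NaHPO4, and 3.33% higher with BGP than with NaHPO4. Col22a1 lay at 105, 97.2 and 93.7 CPM in Control, 100, 96.2 and 94.3 with BGP, and 83.3, 73.6 and 66.0 with NaHPO4. The Control and BGP libraries overlapped, and the NaHPO4 libraries were below both. The log2 fold change was -0.41 with NaHPO4 (SE 0.053, FDR = 9.8e-07) and -0.02 with BGP (95% interval -0.13 to 0.08, FDR = 0.90), and BGP exceeded NaHPO4 by 0.38 (FDR = 5.4e-06). Col12a1 and Col16a1, at 821 and 326 CPM in Control, did not pass in any comparison.

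Collagen VI forms beaded filaments around cells. Col6a2 had 1475, 1565 and 1511 CPM in Control, 1532, 1563 and 1667 with BGP, and 1678, 1782 and 1824 with NaHPO4. The NaHPO4 libraries were above all others, and those of Control and BGP overlapped. Its log2 fold change with NaHPO4 was 0.22 (SE 0.034, FDR = 3.2e-05), and it passed in all 19 alternatives. Col6a1 rose from 2199 ± 58.6 to 2388 ± 56.1 CPM (SD, n = 3; log2 fold change 0.12, FDR = 0.015), a call lost without Control replicate 1 (FDR = 0.115), NaHPO4 replicate 2 (0.076) or NaHPO4 replicate 3 (0.065).

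Col6a3, the long chain of the filament, did not pass in any comparison (2703 ± 171 CPM in Control, 2552 ± 79.8 with BGP and 2637 ± 116 with NaHPO4). Nor did Col6a5 (log2 fold change -0.24 with BGP, FDR = 0.15, and -0.23 with NaHPO4, FDR = 0.088). Relative to Col1a1 and per transcript length, Col6a2 stood at 0.0349 ± 0.00147 in Control, 0.0380 ± 0.00149 with BGP and 0.0471 ± 0.00386 with NaHPO4, with no overlap (exact permutation p = 0.1 for each pair).

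Of the 8 tested network and basement membrane chains, Col4a1 rose and Col8a2 fell with NaHPO4, and neither call was stable. Over all genes, 3.43% were called higher and 3.95% lower with NaHPO4. Col4a1 had 156, 176 and 193 CPM in Control and 200, 196 and 188 with NaHPO4, which overlapped (log2 fold change 0.15, SE 0.047, FDR = 0.034). Without Control replicate 1, the lowest library, it was 0.08 (FDR = 0.385). The call was also lost without Control replicate 2 (0.068), BGP replicate 2 (0.054), NaHPO4 replicate 1 (0.122) or NaHPO4 replicate 2 (0.101), and in DESeq2 (0.308). Col4a2, which starts next to Col4a1 on the opposite strand and shares 311 exon bases with it, had a log2 fold change of 0.05 (95% interval -0.04 to 0.14).

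Col8a2 fell from 513, 476 and 513 CPM to 473, 465 and 454 CPM (log2 fold change -0.11, FDR = 0.036). Without Control replicate 1 (FDR = 0.199), Control replicate 3 (0.167), NaHPO4 replicate 2 (0.101) or NaHPO4 replicate 3 (0.140) it did not pass, nor with total counts (0.117), in limma (0.069) or in a fit of the Control and NaHPO4 libraries alone (0.052). Its partner Col8a1 had 862, 866 and 887 CPM in Control, 864, 914 and 878 with BGP and 818, 849 and 766 with NaHPO4 (log2 fold change -0.10 with NaHPO4, FDR = 0.054). The ratio of Col8a1 to Col8a2 was 1.49 ± 0.0609 in Control and 1.49 ± 0.0613 with NaHPO4.

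Of the prolyl 4-hydroxylase subunits, the main catalytic subunit P4ha1 and the shared subunit P4hb (protein disulfide isomerase) rose with NaHPO4 while the type I chains fell. P4ha1 lay at 137, 151 and 156 CPM in Control, 145, 146 and 149 with BGP, and 165, 168 and 174 with NaHPO4, where all libraries were above the others. Its log2 fold change was 0.19 with NaHPO4 (SE 0.039, FDR = 0.0012) and -0.02 with BGP (95% interval -0.10 to 0.07, FDR = 0.92). P4hb went from 1223 ± 32.4 CPM in Control to 1331 ± 24.2 with NaHPO4 (log2 fold change 0.12, FDR = 0.0077; without Control replicate 1, FDR = 0.066) and was 1233 ± 16.1 with BGP. P4ha2 (log2 fold change 0.09 with NaHPO4, FDR = 0.25) and P4ha3 (-0.09, FDR = 0.38) did not pass.

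Per transcript length, the ratio of P4ha1 to Col1a1 was 0.00671 ± 0.000141 in Control, 0.00694 ± 0.000267 with BGP and 0.00893 ± 0.000608 with NaHPO4, which is 33.0% above Control (exact permutation p = 0.1). For P4hb to Col1a1 the ratio was 26.6% above Control with NaHPO4, and for Serpinh1 to Col1a1 it was 18.1% above Control, each with p = 0.1 in the exact permutation test and no overlap. These ratios share Col1a1, so they are not independent of each other.

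**Figure D4:**
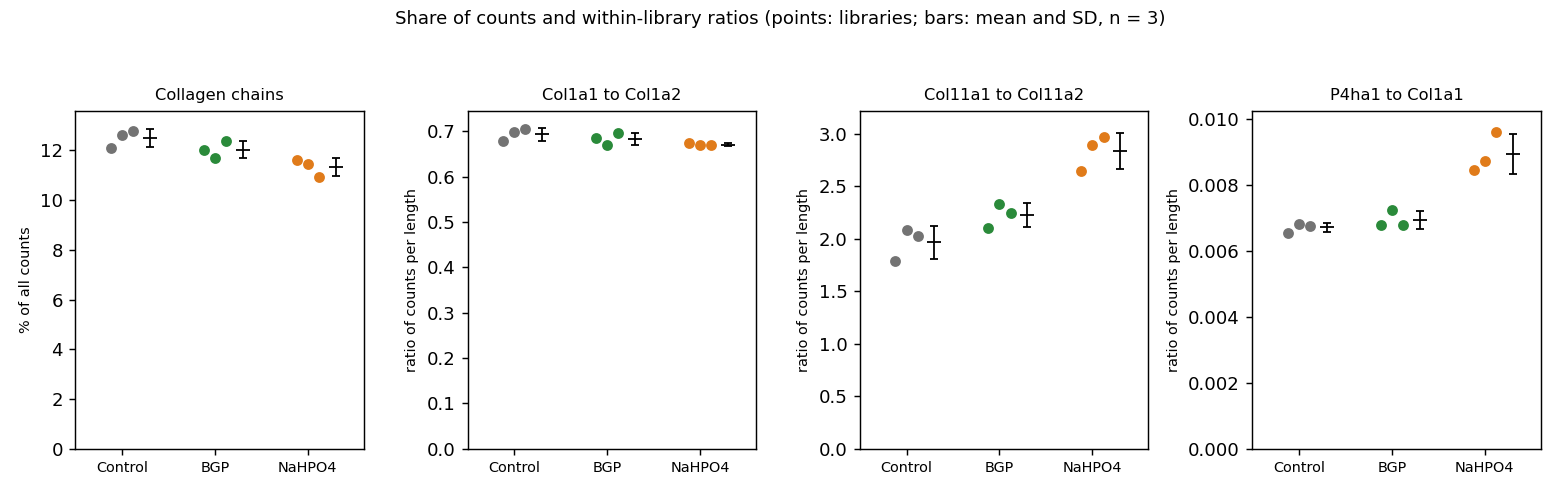
Share of all counts on collagen chains, and ratios of counts per transcript length within each library (points), with the mean and SD of 3 libraries per condition (bars) and axes from 0. The Col1a1 to Col1a2 ratio lies between 0.669 and 0.704 in all libraries, with the NaHPO4 points below the Control points, the Col11a1 to Col11a2 ratio has means of 1.97, 2.23 and 2.84 in Control, BGP and NaHPO4, and the P4ha1 to Col1a1 ratio has its 3 highest values with NaHPO4.

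The lysyl hydroxylases Plod1, Plod2 and Plod3, which prepare lysines for cross-linking, did not pass in any comparison. With NaHPO4 the log2 fold change was 0.12 for Plod1 (95% interval 0.02 to 0.21, FDR = 0.13), 0.01 for Plod2 (-0.08 to 0.09) and 0.03 for Plod3 (-0.05 to 0.12). Plod1 passed with NaHPO4 (FDR = 0.049) when libraries were scaled by total counts. The chaperone gene Serpinh1 had 1748, 1755 and 1760 CPM in Control, 1719, 1711 and 1749 with BGP, and 1773, 1759 and 1816 with NaHPO4 (log2 fold change 0.02 with NaHPO4, 95% interval -0.04 to 0.08, FDR = 0.73).

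Bmp1, the C-proteinase, fell with NaHPO4: it lay at 298, 291 and 297 CPM in Control, 298, 285 and 295 with BGP, and 258, 248 and 258 with NaHPO4. The log2 fold change was -0.21 with NaHPO4 (SE 0.033, FDR = 2.1e-05) and -0.01 with BGP (95% interval -0.08 to 0.06, FDR = 0.92), and the NaHPO4 call held in all 19 alternatives. Its enhancer Pcolce went from 1198 ± 9.76 CPM in Control to 1144 ± 34.2 with BGP and 1144 ± 25.5 with NaHPO4, without overlap with Control, and the change of -0.07 on the log2 scale did not pass with either (FDR = 0.33 and 0.21).

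Among the lysyl oxidase-like enzymes, Loxl3 rose and Loxl4 fell. Loxl3 lay at 155, 147 and 159 CPM in Control, 169, 168 and 168 with BGP, and 178, 171 and 178 with NaHPO4, with no overlap between conditions. Its log2 fold change was 0.19 with NaHPO4 (SE 0.036, FDR = 0.0003) and 0.13 with BGP (SE 0.036, FDR = 0.039). The BGP call was lost without Control replicate 1 (FDR = 0.096) or 2 (0.223), when each BGP replicate in turn was left out (0.097 to 0.137), and without NaHPO4 replicate 2 (0.0503). Exons of Loxl3 overlap the opposite-strand gene Htra2 over 1182 bases; Htra2 had a log2 fold change of -0.02 with each phosphate.

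Loxl4 had 260, 256 and 239 CPM in Control, 257, 247 and 247 with BGP, and 233, 225 and 215 with NaHPO4, all of them below the other libraries. Its log2 fold change was -0.17 with NaHPO4 (SE 0.037, FDR = 0.0028) and -0.01 with BGP (95% interval -0.08 to 0.07, FDR = 0.96).

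Set against each other at the same dose and time, the organic and inorganic phosphate differed in 12 of the 44 genes (5.38% of all genes). With BGP, Col15a1 was higher by 0.49 on the log2 scale (SE 0.051, FDR = 1.1e-08), Col11a2 by 0.41 (SE 0.048, FDR = 1.4e-07), Bmp1 by 0.20 (SE 0.033, FDR = 8.1e-05), Col1a1 by 0.16 (SE 0.034, FDR = 0.0028) and Col1a2 by 0.13 (SE 0.030, FDR = 0.0054). Col22a1, Col8a1, Col8a2 and Loxl4 were also higher with BGP, by 0.38, 0.13, 0.14 and 0.16. P4ha1 was lower with BGP by 0.21 (FDR = 0.00061), Col6a2 by 0.15 (FDR = 0.0048) and P4hb by 0.11 (FDR = 0.022).

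Without a single library some of these direct differences between the phosphates did not pass. They were Col1a2 without NaHPO4 replicate 3 (FDR = 0.053), Col6a2 without BGP replicate 1 (0.068), Loxl4 without BGP replicate 1 (0.057) or NaHPO4 replicate 3 (0.066), Col8a1 without BGP replicate 2 (0.144) or NaHPO4 replicate 3 (0.188), and P4hb without BGP replicate 2 or 3 or NaHPO4 replicate 2 or 3 (0.067 to 0.099). In limma on the authors' TMM table, Col1a1 (FDR = 0.128) and Col1a2 (0.243) did not pass, and with scaling by total counts Col8a1 did not (0.076). Loxl3, which rose with both, did not differ past the threshold (-0.06, 95% interval -0.13 to 0.01, FDR = 0.41), and neither did Col3a1 (0.03, 95% interval -0.06 to 0.12) or Col5a1 (0.00, 95% interval -0.07 to 0.07).

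Of 31 further genes of collagen biosynthesis and turnover, 26 were tested. With NaHPO4, 2 rose and 4 fell (3.43% and 3.95% of all genes), and with BGP 2 rose and none fell (1.86% and 0.665% of all genes). Sparc, a collagen-binding matrix protein, fell with NaHPO4 from 19690 ± 510 to 17940 ± 411 CPM (SD, n = 3; log2 fold change -0.13, FDR = 0.0014; in limma on the authors' TMM table, 0.071), and Ctsk, a collagen-degrading protease, from 292 ± 3.42 to 255 ± 6.57 CPM (-0.20, FDR = 8.4e-05). Loxl1 fell by 0.36 on the log2 scale (FDR = 0.0031; without Control replicate 3, FDR = 0.051). Creb3l1, a transcription factor of collagen secretion, fell by 0.11 (FDR = 0.049), Fkbp14, a prolyl isomerase, rose by 0.11 (FDR = 0.049), and Sec23a, a COPII coat protein, rose by 0.13 (FDR = 0.015; without Control replicate 1, FDR = 0.137, and without NaHPO4 replicate 2, 0.061).

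With BGP, the collagen receptor gene Mrc2 rose by 0.22 (FDR = 0.0015; in DESeq2, 0.094) and Tmem38b, which encodes an endoplasmic reticulum ion channel, by 0.21 (FDR = 0.047). Creb3l1, Ctsk, Loxl1 and Tmem38b were higher with BGP than with NaHPO4, by 0.16 (FDR = 0.0022), 0.14 (0.0068), 0.31 (0.017) and 0.26 (0.0039) on the log2 scale. The Loxl1 difference did not pass without BGP replicate 1 (FDR = 0.182) or 2 (0.077), or without NaHPO4 replicate 2 (0.085) or 3 (0.078). The Creb3l1, Fkbp14 and Tmem38b calls against Control did not pass in 12, 10 and 11 of the 19 alternatives, respectively.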

How the data were processed

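Polyadenylated RNA of MC3T3-E1 cells was sequenced in 9 libraries, 3 per condition, and the conditions were taken from the sample labels. The deposited counts are whole reads per Ensembl gene that the authors obtained by mapping paired reads to GRCm39 in the AIR software after FastQC; the aligner, the counting program and its use of strand are not given in the sources used here. The authors also deposited a TMM-scaled signal table, whose values are the counts times 1.01 to 1.32 per library; it gave the gene names and an alternative test.

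Counts were filtered with filterByExpr (minimum 10), normalized by TMM and fitted in 1 model of 9 libraries with condition as the only term (edgeR 4.0.16, R 4.3.3, quasi-likelihood F test). P-values were adjusted over 13679 genes by the Benjamini-Hochberg method. Standard errors and 95% intervals came from the same fit. The biological coefficient of variation was 3.64%. CPM use TMM library sizes, and levels per kb use the canonical transcript of the annotation (GRCm39). At 21390839 counts, the lowest depth, 10 counts equal 0.468 CPM. The fit was tested on simulated data. Shares and ratios were compared with exact permutation tests (scipy 1.17.1), which cannot go below p = 0.1.

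The genes and the lists were chosen with earlier results of these data known. Named are genes past an FDR of 0.05 (at most 25 per comparison), all 13 processing genes, Col1a1, Col1a2, Col3a1, Col5a1, Col5a2 and Col11a1, the 10 genes with the highest level per length in Control, and further biosynthesis genes past the threshold (at most 8); other genes are named to account for every chain. Alternatives were limma 3.58.1 on the log2 signal (pseudocount 1), DESeq2 1.42.0, other scalings and filters, a replicate block and leaving out each library. Replicate pairs within a condition differed by more than sampling noise (chi-square per degree of freedom 2.61 to 4.84).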

Additional observations from a re-analysis of the deposited data

How the results depend on the processing

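With BGP against Control, 3 genes passed, but DESeq2 gave 1, no filter on low counts 7 and an FDR below 0.01 gave 1. Leaving out single libraries gave 0 to 5. Each of the 3 BGP calls was lost when any of at least 2 libraries was left out. Over all genes, BGP calls numbered 346 of 13679 in the main fit, 302 in DESeq2 and 411 of 24582 with no filter. Without single libraries they numbered 202 to 406 of 13827 to 13920 genes. With NaHPO4 against Control the count was 17, from 14 to 17 without single libraries and from 13 to 21 under the 11 other settings. Over all genes 1009 passed, from 650 to 992 without single libraries and from 880 to 1190 under the other settings at an FDR of 0.05. Between the phosphates the count was 12, from 8 to 13 and from 10 to 13. Over all genes 736 passed there, from 478 to 769 and from 639 to 878. A demand for an absolute log2 fold change above 1 left 0 of the 2 genes past 0.5 with NaHPO4, and between the phosphates leaving out single libraries gave 0 to 2 such genes where all libraries gave 0. No named result changed direction while passing the test, and 16 of the 32 calls of collagen genes kept their side of the threshold in all 19 alternatives. Scalings moved the median of all genes by 0.03 at most on the log2 scale.

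With a replicate block the counts were 3, 18 and 12, and all calls of the fit without it remained (3, 17 and 12). Over all genes the block gave 351, 996 and 749 calls. Same-numbered libraries correlated between -0.0092 and 0.0426 in their deviations from the group means, and not every library correlated best with its own number. Between Control and NaHPO4, the same-numbered pairs (0.0301, 0.0426 and 0.0409) lay above all other pairs (-0.0456 to 0.00218). Deviations from means of 3 libraries cannot settle whether equal numbers mark paired cultures.

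Depth limits chains of a few counts per library, and 3 libraries per condition limit every exact test to p = 0.1. Whether counting used strand bears on the 26 of 44 tested genes whose exons overlap an opposite-strand gene, among them 12 of the 18 that passed in any comparison (such as Col1a2, Loxl3, P4hb and Col27a1), and the effect of this was not tested. The cause of the lost calls was not tested.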
